A study of Mus musculus with 6 samples.

Results

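The interferon-inducible GTPases described here are 4 guanylate-binding proteins (Gbp2, Gbp3, Gbp5 and Gbp7) and 6 immunity-related GTPases (Irgm1, Irgm2, Igtp, Iigp1, Ifi47 and Tgtp1), 10 genes of the 55254 gene symbols in the count table. They were chosen by symbol, all 10 were found, and for each gene the transcript with most counts on average stands for it, out of the 38 transcripts that the table lists for the 10. Bone marrow derived macrophages (BMDMs) of C57BL/6J mice were differentiated for 10 days in medium conditioned by L929 cells and treated with 100 ng/ml LPS, the ligand of TLR4, for 4 hrs before RNA was extracted and sequenced from the 3′ ends. The 3 control libraries came from hnRNPDfl/fl mice and the 3 M-Δx3,4 libraries from LysCre+hnRNPDfl/fl mice, in which Cre driven by the lysozyme M gene removes exons 3 and 4 of hnRNPD, the gene of the RNA-binding protein AUF1, in myeloid cells. The floxed alleles were carried by both groups, the controls carried no Cre, and every library was LPS-treated, so that the levels below are those of activated macrophages and do not show induction. Mice were 6 to 8 weeks old by the study's methods for isolating BMDMs, while its general statement on mice gives an older range for all experiments. The sources used here do not say how the libraries map to single mice, so the p-values measure the spread between these libraries.

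These GTPases are among the most strongly induced products of interferon signalling in mouse cells. LPS leads macrophages to secrete interferon beta, which acts back on the same cells through its receptor, and the factor IRF1 also drives many of the genes after interferon gamma. The proteins load onto the membranes of vacuoles that hold intracellular parasites and bacteria, disrupt them and expose their content to caspases and inflammasomes. In the Irg family the Irgm proteins (Irgm1, Irgm2 and Igtp, also called Irgm3) guard the membranes of the cell and hold the effectors inactive, whereas Iigp1 (Irga6), Ifi47 (Irgd) and Tgtp1 (Irgb6) are effectors. Genes of both families lie in clusters, the 4 Gbp members on chromosome 3 and all Irg members except Iigp1 on chromosome 11.

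The sequence before the members' starts is shown because most members with a sequence window held an interferon motif there. The members were chosen by symbol and not by these motifs. They belong to families known as interferon-inducible, so the motifs are not independent of that choice. In the RefSeq windows of GRCm38.p6, the 250 bases before each annotated start were searched on both strands for the core of the interferon-stimulated response element (ISRE; GAAA, any 2 bases, GAAA) and of the gamma-activated site (GAS; TTCNNNGAA). A window was found for 9 members and none for Iigp1. Gbp3 had a further window that held neither core. A member counts here if any of its windows held the core, while the shares are over single windows. The ISRE core was present in 8 of the 9, with Ifi47 as the exception, against 2.98% of 32851 promoters, and the GAS core in 5 of the 9 (Gbp5, Gbp7, Irgm2, Igtp and Tgtp1), against 7.02%. Igtp, Irgm2 and Tgtp1 each held the GAS core 2 bases before the ISRE core, in stretches that differed at few bases. The stretches lie at chr11:58199501-58199530 (plus strand), chr11:58214892-58214921 (plus strand) and chr11:48992315-48992344 (minus strand), with the GAS core in capitals. Each stops just short of the last base of the ISRE core.
Igtp: aactagccatTTCTAGGAActgaaactgaa
Irgm2: aactagccatTTCCAGGAActgaaactgaa
Tgtp1: aactagccatTTCCAGGAAtcgaaactgaa
The ISRE cores of Gbp2 and Gbp7 begin 59 and 53 bases before the start, at chr3:142620594-142620623 and chr3:142530273-142530302 (both plus strand), and are read on the other strand, here in capitals.
Gbp2: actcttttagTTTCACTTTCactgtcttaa
Gbp7: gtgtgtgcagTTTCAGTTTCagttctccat
Gbp3 and Irgm1 each held a pair of ISRE cores that overlap. A match is a run of letters and does not show that a factor binds there.

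**Figure D1:**
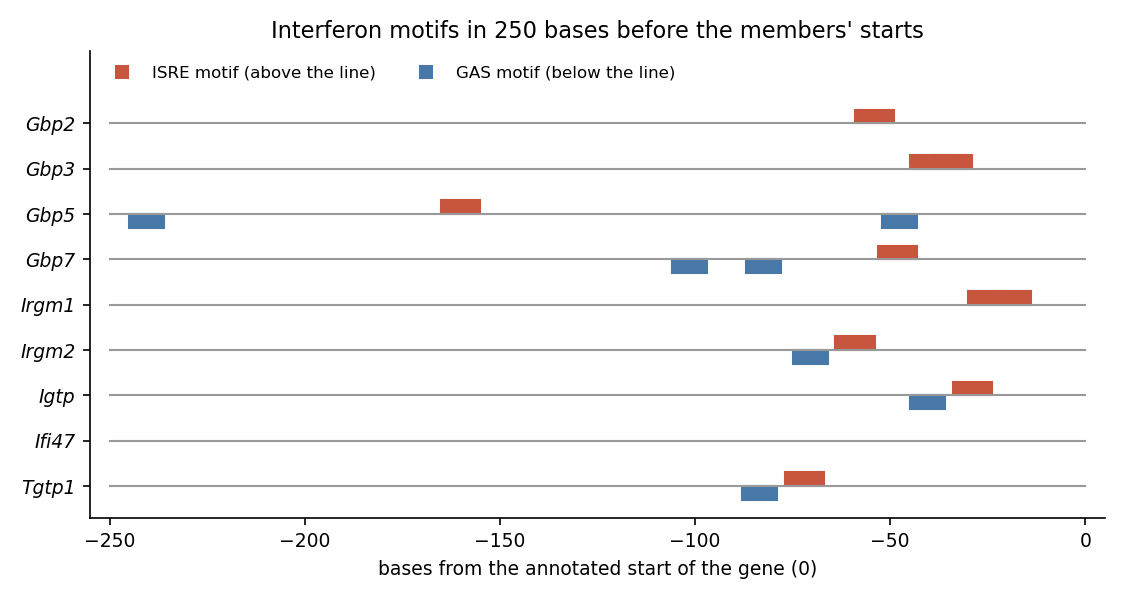
Position of the interferon motifs in the 250 bases before the annotated start of 9 members (x axis: bases from the start at 0, each line a gene), with ISRE cores drawn above and GAS cores below each line. In 7 of the 8 genes with an ISRE core it begins 77 or fewer bases before the start, in Gbp5 165 bases before it, and Ifi47 holds neither motif.

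The libraries held between 5852374 and 9008878 counts over all transcripts. Control replicates 1 and 3 stood farthest apart, with a correlation of 0.764 over the log2 normalized counts of 4723 genes above a mean of 50, while control replicate 1 and M-Δx3,4 replicate 3 correlated at 0.971 (across genes, which are not independent). Results that rest on 1 of these libraries are therefore given with and without it. The p37 transcript of Hnrnpd, the targeted gene, had 177.8, 104.2 and 69.6 normalized counts in control and 52.8, 12.6 and 16.05 in M-Δx3,4 BMDMs. The log2 fold change of p37 was -2.11 (unadjusted p = 0.00144 and adjusted p = 0.984 by edgeR). Its 2 groups did not overlap, as in 8.44% of all genes in either direction. Even the targeted gene thus did not pass after adjustment, so a high adjusted p of a member is not evidence of no change. Reads from 3′ ends cannot tell whether an RNA holds exons 3 and 4. All 7 macrophage markers were present, with a summed level of 5375 to 6454 normalized counts in control and 4784 to 6261 in M-Δx3,4 libraries. All 4 NK cell markers, 2 of 3 T cell markers (Cd3e and Cd3g) and the dendritic cell marker Clec9a had no count in any library. The neutrophil markers summed to 241.1 to 605.5 normalized counts in control and 393.6 to 553.5 in M-Δx3,4 libraries, and those of B cells, T cells, dendritic cells and fibroblasts each to at most 38.8 in any library. Of the macrophage markers Lyz2, the lysozyme M gene, named after its values were seen, was lower in M-Δx3,4 BMDMs (1992, 1788 and 2201 against 1342, 881.7 and 968.2, log2 fold change -0.91, unadjusted p = 0.00890 and adjusted p = 0.984 by edgeR), and its part in the results below was not tested.

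Per kilobase of counted region, Irgm2, Gbp2 and Irgm1 had the highest levels, with means of 929.0, 899.3 and 897.1 normalized counts per kilobase over the 6 libraries. Ifi47 (568.0), Gbp5 (349.7), Gbp3 (254.8), Igtp (173.7), Gbp7 (125.7) and Iigp1 (77.4) followed, and Tgtp1 (41.4) was the lowest. The ranges over the libraries overlapped between neighbours in this order, with 1 exception, since the lowest library of Ifi47 (486.4 per kilobase) was above the highest of Gbp5 (466.7). The counted regions measured between 551 bases in Ifi47 and 3824 in Gbp7. Since 3′ end reads gather near the end of a transcript whatever its length, dividing by the region lowers the long regions of Gbp7 and Irgm2 in this order. Without that division Irgm2 was also first, with 2181.2 normalized counts on average, and Tgtp1 last with 64.2.

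Among the Irg effectors, Tgtp1 (Irgb6) was higher in M-Δx3,4 BMDMs by the unadjusted p, and not after adjustment. Its transcript ENSMUST00000068063 is counted at chr11:48985078-48986628 of mm10. It had 63.9, 32.7 and 39.4 normalized counts in control replicates 1 to 3 and 91.9, 70.9 and 86.4 in M-Δx3,4 replicates 1 to 3. Every M-Δx3,4 library was above every control library, with the narrowest gap between control replicate 1 and M-Δx3,4 replicate 2. The means were 45.4 ± 16.4 and 83.1 ± 10.9 (SD, n = 3), a log2 fold change of 0.87 (standard error 0.40, 95% interval 0.03 to 1.72). The unadjusted p of edgeR's quasi-likelihood test was 0.0431, the p adjusted over all transcripts 0.984, and the exact permutation test, two-sided, gave 0.1, the smallest that 3 libraries against 3 allow. In whole cultures, more cells that make an RNA and more RNA per cell cannot be told apart. The unadjusted p rose above 0.05 in 5 of the 6 fits that left out 1 library, with log2 fold changes between 0.68 (unadjusted p = 0.167, without control replicate 2) and 0.97, and was 0.00713 without control replicate 1 (log2 fold change 1.205).

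The value of Tgtp1 is shared with its neighbour Tgtp2. The 2 transcripts were identical over their last 1040 bases, and in each library the count of Tgtp1 was between 0.800 and 0.869 of that of Tgtp2. Tgtp1 had 55, 32 and 34 counts in control and 94, 73 and 113 in M-Δx3,4, and Tgtp2 had 67, 40 and 40 against 110, 84 and 132. Reads in the identical part cannot be assigned to 1 of the genes, so the values of the pair are not independent. Tgtp2 had a log2 fold change of 0.81 (standard error 0.39, unadjusted p = 0.0534 in edgeR's quasi-likelihood test), with libraries that did not overlap either.

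Iigp1 (Irga6), which coats parasite vacuoles, had 162.7, 96.0 and 90.5 normalized counts in control and 180.0, 126.2 and 191.1 in M-Δx3,4 BMDMs. The groups overlapped only through control replicate 1, which lay above M-Δx3,4 replicate 2. The log2 fold change was 0.51 (standard error 0.37, 95% interval -0.27 to 1.29, unadjusted p = 0.183, exact permutation p = 0.2, two-sided). Ifi47 (Irgd) was the most even of the members, with 324.3, 318.8 and 304.0 in control and 268.0, 317.5 and 345.4 in M-Δx3,4 BMDMs. The control values of Ifi47 lay inside the M-Δx3,4 range, and its log2 fold change was -0.02 (95% interval -0.67 to 0.62, which covers folds from 0.627 to 1.54).

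The Irgm regulators had libraries that overlapped. Irgm1, which localizes to the Golgi, mitochondria and lysosomes and is needed for autophagy in macrophages, had 1120.4, 437.3 and 269.2 normalized counts in control and 1089.7, 443.8 and 972.8 in M-Δx3,4 BMDMs. Its control libraries alone spanned a 4.16-fold range, with control replicate 1 above all M-Δx3,4 libraries and control replicates 2 and 3 under them. The log2 fold change of Irgm1 was 0.46 (standard error 0.47, 95% interval -0.55 to 1.46, exact permutation p = 0.6, two-sided). Irgm2 had 2568.6, 1697.0 and 1760.0 in control and 2921.8, 1654.6 and 2485.2 in M-Δx3,4 BMDMs. Replicate 1 was the highest of Irgm2 in both groups and the lowest value of all was M-Δx3,4 replicate 2, with a log2 fold change of 0.23 (95% interval -0.45 to 0.91). Igtp (Irgm3) had 248.7, 224.8 and 292.4 in control and 274.9, 232.1 and 237.7 in M-Δx3,4 BMDMs. All 6 values of Igtp lay within a 1.301-fold range and the log2 fold change was -0.04 (95% interval -0.71 to 0.63).

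None of the 4 Gbp members had an unadjusted p under 0.05 by edgeR's test. Gbp2, which is recruited to vacuoles of Toxoplasma and to bacteria, had 870.5, 495.5 and 793.5 normalized counts in control and 783.5, 412.7 and 766.5 in M-Δx3,4 BMDMs. Replicate 2 was the lowest of Gbp2 in both groups, and the log2 fold change was -0.14 (standard error 0.35, 95% interval -0.88 to 0.60, unadjusted p = 0.698). Gbp5, which promotes assembly of the NLRP3 inflammasome, had 366.1, 499.6 and 627.6 in control and 405.0, 436.0 and 667.9 in M-Δx3,4 BMDMs. Its groups covered nearly the same range, with a log2 fold change of 0.02 (95% interval -0.70 to 0.73).

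Of the Gbp members, Gbp3 and Gbp7 spread most within the controls. Gbp3 had 306.8, 182.9 and 81.2 normalized counts in control and 236.7, 130.1 and 233.1 in M-Δx3,4 BMDMs, all M-Δx3,4 values lying between control replicates 1 and 3. Its log2 fold change was 0.07 (standard error 0.44, 95% interval -0.86 to 1.01). Gbp7, a vacuole-associated Gbp with the longest counted region, had 839.2, 214.6 and 298.2 in control and 482.2, 291.3 and 759.6 in M-Δx3,4 BMDMs. Control replicate 1 held the highest value of Gbp7 and control replicate 2 the lowest, and the log2 fold change was 0.18 (standard error 0.47, 95% interval -0.83 to 1.19).

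**Figure D2:**
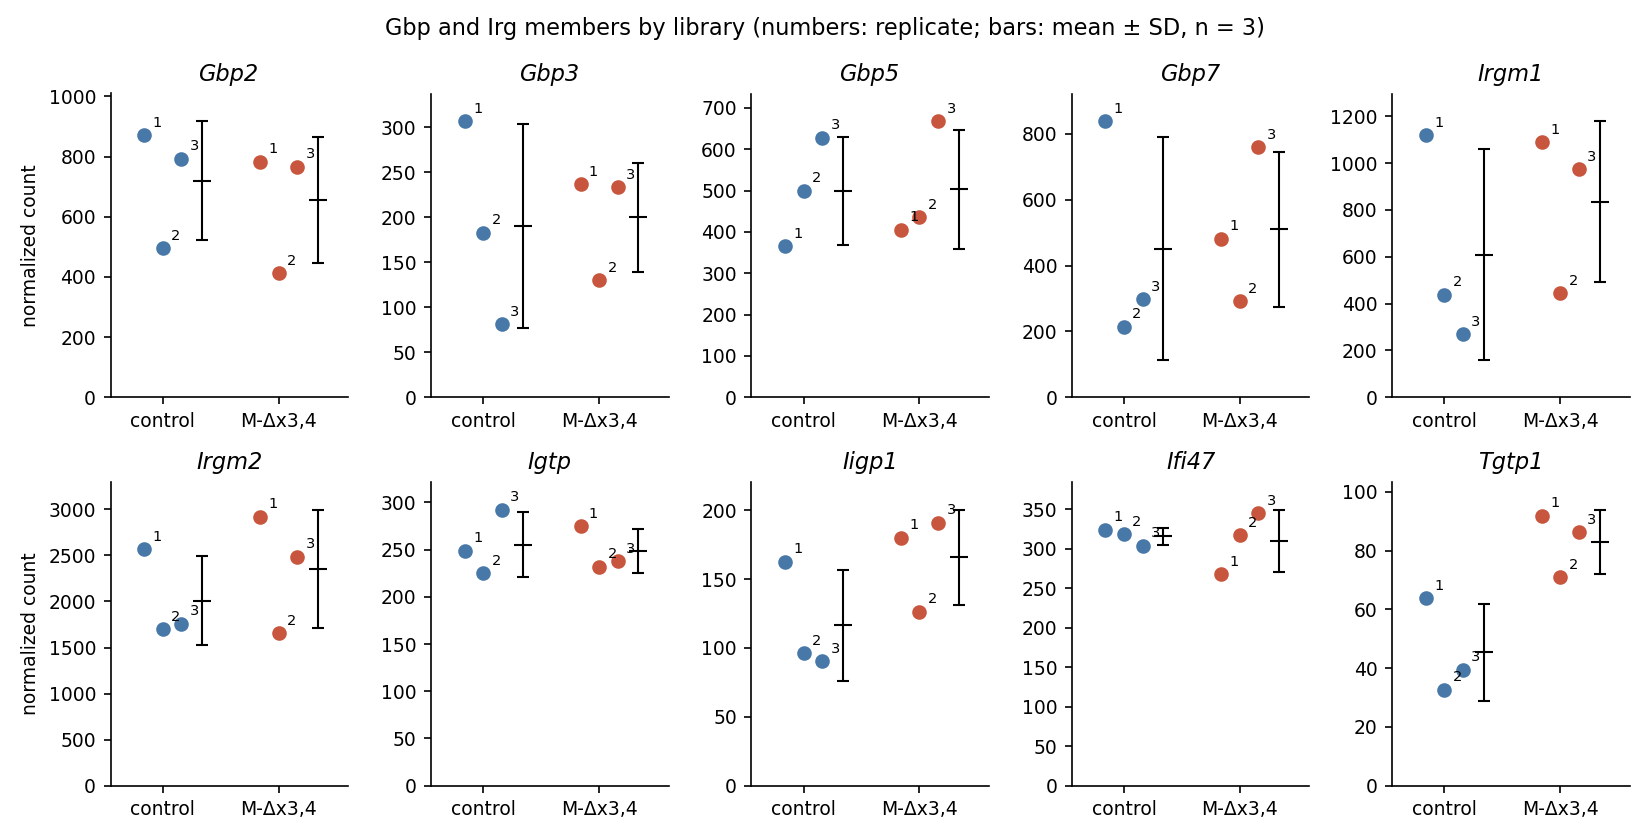
Normalized counts of the 10 members in each library (y axis, from 0), with replicate numbers beside the points and mean ± SD (n = 3) as bars to their right. Only in Tgtp1 do all M-Δx3,4 points lie above all control points, and in Gbp2, Gbp3, Gbp7 and Irgm1 control replicate 1 is the highest of the 6 libraries.

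Over the 10 members, 1 (Tgtp1, higher) was under 0.05 by the unadjusted p of edgeR's test, beside 3.98% of the 11873 genes tested with the same representation (1.45% for an increase). Control and M-Δx3,4 values were fully apart in the same 1 of 10, beside 8.44% of all genes in either direction and 4.19% for an increase. There were 7 members with a positive and 3 with a negative log2 fold change. The median was 0.13, beside -0.01 over all genes tested. The adjusted p-values of the members, over all 32475 transcripts tested, ran from 0.984 to 0.998, and no transcript of the table had one under 0.05 (12 by DESeq2's Wald test), while 1340 had an unadjusted p under 0.05. Summed over the 10 members, the libraries held 6871, 4199 and 4556 normalized counts in control and 6734, 4115 and 6746 in M-Δx3,4 BMDMs. In that sum control replicate 1 and M-Δx3,4 replicates 1 and 3 formed the high libraries and the groups overlapped (5209 ± 1451 against 5865 ± 1515, n = 3, exact permutation p = 1, two-sided).

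The members differed in how far control replicates 1 and 3 lay apart, and the 4 with the highest difference were also the richest in A and T. The log2 difference between control replicates 1 and 3 was 2.05 for Irgm1, 1.91 for Gbp3, 1.49 for Gbp7 and 0.84 for Iigp1, all 4 higher in control replicate 1. It was 0.68 for Tgtp1, 0.55 for Irgm2, 0.13 for Gbp2 and 0.09 for Ifi47, and negative for Igtp (-0.23) and Gbp5 (-0.78). The A+T share of the last 500 bases of the transcript was 64.4% in Irgm1, 68.4% in Gbp3, 69.0% in Gbp7 and 65.0% in Iigp1, against 53.8% in Igtp and 57.2% to 59.2% in the other 5. Within these 4, and within the other 6, the order of the differences was not that of the A+T share. The relation was one of the whole table. Over 4716 genes the correlation between the A+T share and this difference was 0.52 (Pearson) and 0.62 (Spearman), as a description across genes of the same 2 libraries, and the median difference ran from -0.85 in the 1179 genes with at most 48.4% A and T to 0.95 in the 1173 genes with at least 60.2%. With the trend of each library over the A+T share removed, a fit added after the data were seen, the highest control library of Iigp1 was 1.09 times the lowest (from 1.80), that of Gbp3 1.97 times (from 3.78), that of Gbp7 2.05 times (from 3.91) and that of Irgm1 2.20 times (from 4.16). The control spread of Tgtp1 and Irgm2 also fell, to 1.65 and 1.20 times (from 1.96 and 1.51). It was larger with the trend removed in the other 4 members, at 2.35 times for Gbp5 (from 1.71), 1.399 for Ifi47 (from 1.07), 1.398 for Igtp (from 1.301) and 1.80 for Gbp2 (from 1.76). The trend was fitted to these same libraries, with the members among the genes. A smaller control spread in genes rich in A and T was therefore in part built in and is not a test.

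**Figure D3:**
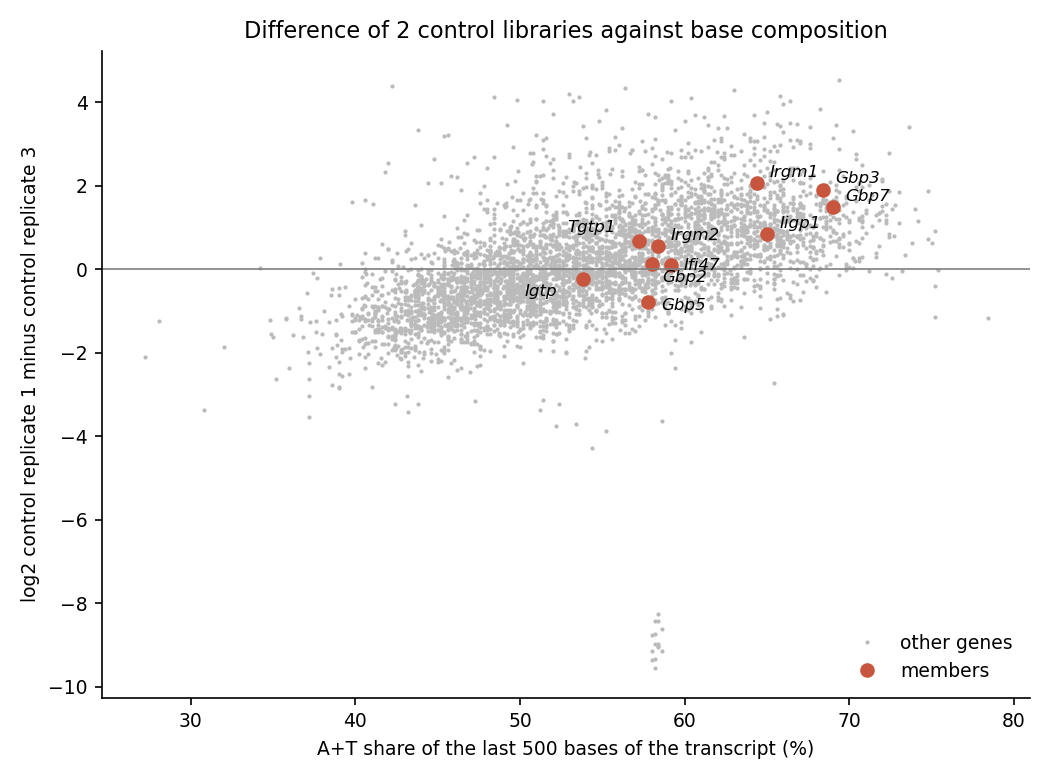
Log2 difference between control replicates 1 and 3 (y axis) against the A+T share of the last 500 bases of the transcript (x axis, percent) for 4716 genes, with the 10 members in red. Irgm1, Gbp3, Gbp7 and Iigp1 sit at the upper right among other genes rich in A and T, and Igtp and Gbp5 lie below 0.

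The fold changes moved with these libraries. Without control replicate 1 the log2 fold change was 1.24 for Irgm1 (unadjusted p = 0.00425 by edgeR), 1.205 for Tgtp1 (unadjusted p = 0.00713), 1.00 for Gbp7 (unadjusted p = 0.0166) and 0.83 for Iigp1 (unadjusted p = 0.0327). These were 4 of the 10 members, beside 9.61% of all genes tested for an increase in that fit, and their adjusted p-values ran from 0.178 to 0.294. The median of the members was 0.52 in that fit and 0.05 over all genes. Without M-Δx3,4 replicate 3 the median of the members was -0.03. With the A+T trend removed it was -0.06, and 1 of the 10 members, Tgtp1, had an unadjusted p under 0.05 (log2 fold change 0.80, unadjusted p = 0.0299, adjusted p = 0.970 by edgeR), beside 4.77% of genes. In that fit Irgm1 was at 0.32, Iigp1 at 0.25 and Gbp7 at -0.06. The sign of Gbp2, Gbp3, Gbp5, Gbp7, Igtp and Ifi47 turned in 1 or more of the fits with a library removed, and that of Irgm1, Irgm2, Iigp1 and Tgtp1 did not.

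**Figure D4:**
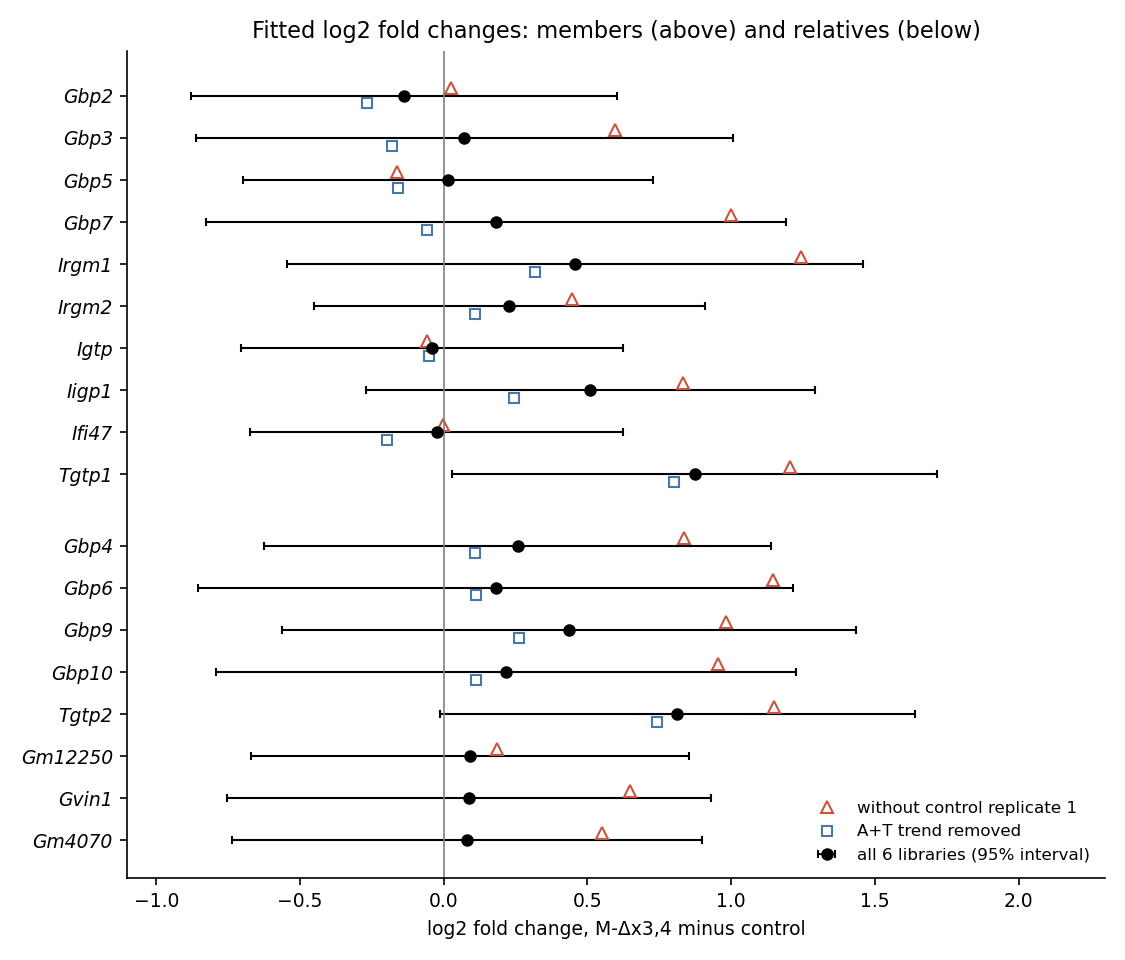
Fitted log2 fold change (x axis, M-Δx3,4 minus control) of the 10 members and of 8 relatives with a mean above 50 normalized counts. Dots with bars give all 6 libraries with the 95% interval, triangles the fit without control replicate 1 and squares the fit with the A+T trend removed (drawn where it was tabulated). Of the intervals, that of Tgtp1 (0.03 to 1.72) alone lies above 0, and the triangles of Irgm1 and Gbp7 lie at 1.24 and 1.00.

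The members followed each other unevenly over the 6 libraries. Iigp1, Irgm2, Gbp7 and Irgm1 correlated most with the mean of the other 9 on the log2 scale (Pearson r between 0.91 and 0.94), Gbp3 and Tgtp1 at 0.72 and 0.71, Gbp2 at 0.57, Igtp and Ifi47 at 0.01 each, and Gbp5 at -0.30. The highest correlation of a pair was 0.94 (Irgm1 and Iigp1, which lie on different chromosomes) and the lowest -0.62 (Igtp and Ifi47, both on chromosome 11). In control replicate 1 and M-Δx3,4 replicate 1, 8 of the 10 members were above their own mean, and in M-Δx3,4 replicate 3 there were 9, against 3 in control replicates 2 and 3 and 2 in M-Δx3,4 replicate 2. The same 6 libraries stand behind every one of these correlations, with the base composition trend in them, so they are a description.

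The genes whose log2 counts were most like the mean profile of the members, among 4713 others with a mean above 50, were Cmpk1, Ccdc71l, Abi1, Trim30c and Mtmr6 (Pearson r between 0.991 and 0.996 over 6 libraries). Cmpk1 had 235.9, 109.3 and 107.9 normalized counts in control and 213.2, 117.5 and 226.2 in M-Δx3,4 BMDMs. Control replicate 1 was the highest library of Cmpk1 and the groups overlapped. None of the 5 is a Gbp or Irg gene. Of the other Gbp genes, Gbp9 (r = 0.960), Gbp4 (0.910) and Gbp6 (0.908) had the profiles most like it.

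**Figure D5:**
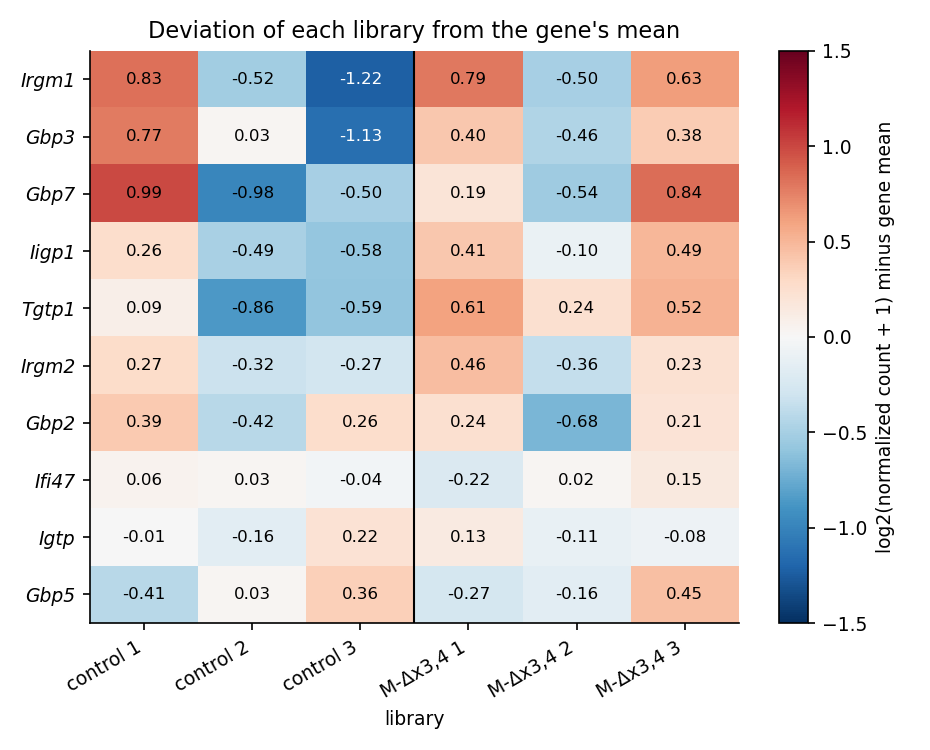
Deviation of each library (columns) from the mean of the gene (rows) in log2(normalized count + 1), red above and blue below the mean, with rows ordered by the difference between control replicates 1 and 3. Irgm1, Gbp3 and Gbp7 swing by up to 1.22 below or 0.99 above their mean, whereas Ifi47 and Igtp stay within 0.22 of it.

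Of 19 other Gbp and Irg genes listed, 18 were in the table and 14 could be tested. None was under 0.05 by the unadjusted p of edgeR's test, beside 3.98% of all genes. By DESeq2's Wald test 1 was, Tgtp2, and the share of all genes was not taken for that test. Tgtp2 was also the only 1 of the 14 with groups that did not overlap, beside 8.44% of all genes. For 14 genes these counts are near those shares. There were 11 positive and 3 negative log2 fold changes, with a median of 0.14. On chromosome 5, Gbp4, Gbp6 and Gbp10 had their highest value in control replicate 1, and Gbp9 in M-Δx3,4 replicate 3 with control replicate 1 next. Gbp6 had 496.3, 150.2 and 106.7 normalized counts in control and 269.0, 202.0 and 382.1 in M-Δx3,4 BMDMs, and Gbp4 had 298.7, 143.0 and 97.4 against 209.3, 160.2 and 274.3. In both, control replicate 1 was above and control replicates 2 and 3 were under every M-Δx3,4 library. Gbp4 (0.26), Gbp6 (0.18), Gbp9 (0.44) and Gbp10 (0.22) had log2 fold changes with overlapping groups, and without control replicate 1 these were 0.84, 1.147, 0.98 and 0.96, each with an unadjusted p under 0.05 in that fit. Tgtp2 was the fifth of the 14 relatives to pass there (1.149), beside 9.61% of all genes for an increase in that fit. The region of Gbp10 overlaps that of the model gene Gm43302, so that reads in the overlap cannot be told apart, and that of Gbp7 a region of the pseudogene Gm43802 with at most 3 counts in any library.

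Gvin1, a member of the family of giant inducible GTPases, had a log2 fold change of 0.09 and Gm4070, which has the same number of bases and pentamers in its 3′ UTR, of 0.08, with near-equal counts that may be shared. Gm12250 (0.09) and Gm4951 (0.57) had overlapping groups. Gm12185 (0.71), Gm4841 (-0.51), 9930111J21Rik1 (-0.65), 9930111J21Rik2 (0.08) and Gbp8 (-0.17) had at most 24.4 normalized counts in any library. Gbp2b, Gbp11 and F830016B08Rik had no library above 3 counts, which is not evidence that they are absent at this depth, and Irgc1 had 0 counts in every library, where up to 3 counts in a library would be allowed.

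The listed genes that carry the interferon signal to these GTPases were compared in the same way. Of 18 listed ligands, receptors, kinases and factors, 17 could be tested. None was under 0.05, unadjusted, in either direction by edgeR's test or by DESeq2's Wald test. The share over all genes by edgeR's test was 3.98%, and for 17 genes a count of 0 is near it. There were 5 positive and 12 negative log2 fold changes, with a median of -0.15. Irf1 had 2492, 3015 and 3002 normalized counts in control and 1889, 2323 and 2113 in M-Δx3,4 BMDMs. All M-Δx3,4 values of Irf1 were lower than all control values, the log2 fold change being -0.43 (standard error 0.28, unadjusted p = 0.151). Irf7 (-0.48) and Stat2 (-0.51), named after their values were seen, likewise had M-Δx3,4 libraries that were all under the controls. Their unadjusted p-values by edgeR's test were 0.117 and 0.139. These 3 were the only ones of the 17 without overlap, all of them lower. Over all genes 8.44% did not overlap in either direction (1002 of 11873, of which 497 were higher in M-Δx3,4). Ifnb1, the gene of interferon beta and also named after its values were seen, had 40.7, 21.5 and 34.8 in control and 33.3, 38.8 and 44.3 in M-Δx3,4 BMDMs, and Ifng had no library above 3 counts.

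Genes that work with the GTPases at vacuoles were tested in 2 further lists. Of 13 listed genes of autophagy, ubiquitin and the Gabarap and LC3 proteins, none had an unadjusted p under 0.05 (8 positive, 5 negative, median 0.12). Of 8 caspase and inflammasome genes, which act after Gbp proteins have opened a vacuole, none did (3 positive, 5 negative, median -0.08). By DESeq2's Wald test the count was 0 in both lists as well. Over all genes the share under 0.05 by edgeR's test was 3.98%, and in lists this short a count of 0 is near it. Without control replicate 1, 6 of the 38 tested genes of the signalling, vacuole and caspase lists had an unadjusted p under 0.05 (3 higher and 3 lower), beside 16% of all genes in either direction in that fit.

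AUF1 was named for binding AU-rich elements, so the annotated 3′ UTRs of the representing transcripts in GENCODE vM21 were searched for the pentamer ATTTA and the nonamer TTATTTATT on the transcript strand. ATTTA was present in 7 of the 10 members, beside 69.4% of 9736 genes, and absent from Gbp2, Irgm1 and Igtp. The nonamer was in none of the 10, beside 7.52% of genes. Gbp3 had 3.87 ATTTA per kilobase, Ifi47 3.31, Iigp1 3.18, Gbp7 1.96 (7 in 3575 bases), Gbp5 1.69, Irgm2 0.95 and Tgtp1 0.77, beside a median of 1.22 over all genes. Among the relatives on chromosome 5, Gbp4, Gbp6, Gbp9 and Gbp10 each held 1 nonamer and between 8 and 13 pentamers, and Gbp8 no nonamer and 2 pentamers. The single pentamers of Tgtp1 (chr11:48985957-48985981, minus strand) and Ifi47 (chr11:49096857-49096881, plus strand) are shown, in capitals. Tgtp1 was chosen as the member under 0.05 by the unadjusted p alone, not after adjustment, and Ifi47 as the most even one.
Tgtp1: actagacttcATTTAttctttgcat
Ifi47: gtgttcattgATTTAttattcttga

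Where a shorter region of the same gene lies inside the counted one, the share of its counts shows where along the counted region reads fell. The counted regions are longer than the annotated 3′ UTRs, with 1823 against 1574 bases in Iigp1 and 3824 against 3575 in Gbp7. In Iigp1 the first 1296 of 1823 bases (a shorter transcript, ENSMUST00000237185) held 68 of 140, 40 of 94 and 39 of 78 counts in control (47.0% ± 3.95) and 46 of 184, 58 of 130 and 162 of 250 in M-Δx3,4 BMDMs. M-Δx3,4 replicate 1 (25.0%, 95% Wilson interval 19.3% to 31.7%) and replicate 3 (64.8%, 58.7% to 70.5%) lay on either side of all control libraries, so that the spread within M-Δx3,4 (44.8% ± 19.9, n = 3) exceeded the difference from control (exact permutation p = 0.8, two-sided). In Gbp7 the first 725 bases held 2.49%, 3.33% and 11.3% in control and 2.64%, 6.33% and 2.62% in M-Δx3,4 BMDMs, with control replicate 3 the highest. Most reads of Gbp7 thus fell after these first 725 bases in every library, and where in the rest of the region they fell was not resolved. The intervals treat each read as independent and leave out the spread between libraries. Since the reads carry no molecular identifiers, copies of 1 molecule count as separate reads, so the intervals may be too narrow.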

How the data were processed

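The authors prepared QuantSeq 3′ libraries, mapped the reads to mm10 with TopHat2 and Bowtie2 and deposited raw counts of reads per 3′ UTR region of each transcript, which are the counts used here. A second deposited table holds the authors' own comparison and 24 further columns of per-sample values, which were not used. The regions of a transcript were summed. Library factors came from edgeR's RLE method. A transcript was tested if any library exceeded 4.89 normalized counts, their median, which left 32475. The groups were compared with the quasi-likelihood test of edgeR 4.0.16 (R 4.3.3) and p-values adjusted by Benjamini-Hochberg over these. The procedure was tested on simulated counts. Single values also had an exact permutation test over libraries. The members, the lists and the tests were chosen with earlier results of these data known. Genes named are the 10 members, their tested relatives, Hnrnpd and Irf1 (and listed partners under an unadjusted p of 0.05, of which there were none), and the 5 genes most like the members. One further gene that this rule names is not reported here. Others are said to be named after their values were seen, or stand for a count. Alternatives were TMM, library totals, DESeq2 1.42.0, limma-voom (limma 3.58.1), other filters, 1 transcript per gene, a replicate block, other transcripts of the members, each library left out, and, added later, removal of each library's trend over the A+T share of the last 500 bases. Fold changes are on the log2 scale as edgeR fitted them, spreads and likeness use log2(normalized count + 1). Promoters are RefSeq's and 3′ UTRs those of GENCODE vM21, both on GRCm38. No batch is given in the sources used here.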

Additional observations from a re-analysis of the deposited data

How the results depend on the processing

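The count of members with an unadjusted p under 0.05 was 1 in every fit that kept all libraries, and between 0 and 4 with a library left out (4 without control replicate 1, 0 in the other 5 fits). The median log2 fold change of the members lay between -0.033 (without M-Δx3,4 replicate 3) and 0.52 (without control replicate 1) with a library left out, and was -0.055 with the A+T trend removed. Of the relatives, 1 gene (Tgtp2) was under 0.05 with TMM, with library totals only, with DESeq2, with limma-voom and with the A+T trend removed, and between 0 and 5 with a library left out. In the signalling and partner lists the count was 0 in every fit with all libraries and between 0 and 6 with a library left out. By edgeR's test 3.98% of all genes were under 0.05 with all libraries and 16% without control replicate 1. Over all transcripts, 1071 were under 0.05, unadjusted, and changed at least 1 on the log2 scale. The number was 365 with 1 transcript per gene, 265 with at least 10 counts in every library, 466 with filterByExpr, 739 with DESeq2, 1715 with no filter, and between 710 (without control replicate 3) and 3224 (without control replicate 1) with a library left out.

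With a library left out, the log2 fold change ran from -0.35 to 0.11 for Gbp2, from -0.28 to 0.60 for Gbp3, from -0.24 to 0.23 for Gbp5, from -0.22 to 1.00 for Gbp7, from -0.11 to 0.069 for Ifi47 and from -0.12 to 0.079 for Igtp. With all libraries the sign also turned for Gbp3 (-0.18), Gbp5 (-0.16) and Gbp7 (-0.058) with the A+T trend removed, for Gbp5 with 1 transcript per gene (-0.026), and for minor transcripts, ENSMUST00000169572 of Gbp2 (3.04), ENSMUST00000199578 of Gbp5 (-2.35), ENSMUST00000171263 of Gbp7 (-0.26) and ENSMUST00000235989 of Iigp1 (-0.47). Those of Gbp2, Gbp5 and Iigp1 had means under 4 normalized counts. The cause of these changes was not tested.

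Replicate numbers were not evidence of pairing, since the deviations of same-numbered libraries correlated at -0.21, 0.54 and -0.31. With the replicate block, 685 transcripts passed the threshold, Tgtp1 was again the only member under 0.05, and the median of the members was 0.20. Pentamers could not be counted over the deposited regions, or without their ends, because no genome sequence was used here, so annotated 3′ UTRs took their place. The depth limits what is said of Tgtp1, with 32 to 113 counts per library, and of relatives with a few counts, while the spread between the controls limits Irgm1, Gbp3 and Gbp7.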
